A study of Mus musculus with 6 samples.

Results

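Cholesterol synthesis and its control by the SREBP transcription factors were described from 31 genes among the 21899 genes measured in mouse liver. The genes were taken by symbol from a list of pathway members, and all 31 were found in every library. They comprise 19 enzymes of the route from acetoacetyl-CoA to cholesterol. The other 12 are Ggps1 of the isoprenoid branch and genes of SREBP activation, sterol transport, uptake control and esterification. Liver RNA was sequenced from 6 C57BL/6 mice, an inbred laboratory strain, with 3 mice fed CDAA and 3 fed CSAA, the control feed. In this field CDAA and CSAA stand for choline-deficient and choline-supplemented amino acid-defined diets. Animals entered the study at an age of 6 weeks and were left for 1 week to settle in. Mixed feed over 1 week then led the CDAA group onto its diet. Livers were collected at week 6. No genetic alteration is named for either group. No transcript marks the feed itself, so the labels could not be checked, and the sign of every difference rests on them.

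Cells make cholesterol from acetyl-CoA through mevalonate, isoprenoid diphosphates, squalene and lanosterol, and the liver is a major site of this synthesis. SREBP-2, encoded by Srebf2, is the main activator of the enzyme genes, while SREBP-1c, a product of Srebf1, mainly drives fatty acid synthesis genes in liver. When membranes of the endoplasmic reticulum are rich in sterol, Insig proteins hold the SREBP escort Scap there. When sterol falls, Scap carries SREBP to the Golgi, where the proteases encoded by Mbtps1 and Mbtps2 release the active factor. That regulation acts on the protein, so mRNA levels of SREBP genes need not follow SREBP activity.

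The promoters of the enzyme genes are known for sterol regulatory elements, which SREBP binds, beside CCAAT boxes, which NF-Y binds. RefSeq promoters on GRCm38.p6, reaching from 250 bases before to 50 bases after a start site, were found for 26 of the 31 genes. The letters TCACNCCAC, a strict form of the element, stood on either strand in 1 of these 26 genes, Hmgcs1, and in 1.44% of all 27025 genes with a promoter in the table. The shorter TCACNNCA, which contains the strict form, stood in 10 of 26 (38.5%, against 15.7% of all genes). CCAAT stood in 22 of 26 (84.6%, against 41.1%) and GGGCGG, the core of Sp1 sites, in 23 of 26 (88.5%, against 38.2%). Base composition was not matched, so these shares are descriptions, and a match is not a binding site.

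Stretches of 180 bases that end at the base before the start site are shown for 5 of the enzyme genes that rose and hold a TCACNNCA match there and for Soat1, the member whose transcript fell. Of the 16 members that rose and have a promoter in the table, 7 hold TCACNNCA and 9 do not. Dhcr7, Insig2 and Srebf2, which did not pass, also hold it. Whether the match goes with the calls was not tested. Capitals mark TCACNNCA and CCAAT on either strand. Each is written in the direction of its gene.
Hmgcs1 (chr13:119690171-119690350, plus strand): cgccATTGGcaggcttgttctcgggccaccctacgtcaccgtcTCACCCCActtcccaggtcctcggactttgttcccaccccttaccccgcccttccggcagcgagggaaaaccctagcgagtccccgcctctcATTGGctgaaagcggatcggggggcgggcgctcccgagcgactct
Cyp51 (chr5:4104698-4104877, minus strand): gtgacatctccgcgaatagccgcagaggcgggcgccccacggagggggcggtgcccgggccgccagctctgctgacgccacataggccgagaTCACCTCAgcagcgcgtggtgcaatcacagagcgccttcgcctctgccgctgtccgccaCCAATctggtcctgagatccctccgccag
Msmo1 (chr8:64733579-64733758, minus strand): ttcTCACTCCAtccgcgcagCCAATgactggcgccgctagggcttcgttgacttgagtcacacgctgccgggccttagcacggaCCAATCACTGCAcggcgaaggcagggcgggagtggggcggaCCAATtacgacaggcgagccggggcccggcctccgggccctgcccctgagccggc
Hsd17b7 (chr1:169969206-169969385, minus strand): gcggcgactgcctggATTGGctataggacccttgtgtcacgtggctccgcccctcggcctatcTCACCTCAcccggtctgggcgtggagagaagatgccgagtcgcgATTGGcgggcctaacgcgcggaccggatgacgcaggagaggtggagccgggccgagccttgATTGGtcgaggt
Sc5d (chr9:42264301-42264480, minus strand): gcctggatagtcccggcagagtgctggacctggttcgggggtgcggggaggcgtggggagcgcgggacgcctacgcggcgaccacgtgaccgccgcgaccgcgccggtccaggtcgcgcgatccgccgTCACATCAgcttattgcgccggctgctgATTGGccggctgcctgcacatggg
Soat1 (chr1:156474329-156474508, minus strand): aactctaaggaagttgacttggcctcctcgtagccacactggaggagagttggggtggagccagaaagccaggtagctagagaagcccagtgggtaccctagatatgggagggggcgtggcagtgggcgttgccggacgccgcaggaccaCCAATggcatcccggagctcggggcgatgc
In Hmgcs1 the TCACNNCA match begins 137 bases before the start site and is part of a match to the strict form. In Cyp51 it begins 88 bases before the start site and in Hsd17b7 117 bases before it. Msmo1 held 2 such matches and 3 CCAAT boxes, of which 1 box shares its last base with the match that begins 92 bases before the start site. Soat1 held 1 CCAAT box and no TCACNNCA in this stretch.

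The libraries held 14580676 to 15291743 reads over genes in CDAA and 15459290 to 17367173 in CSAA. Levels are given in CPM, the count scaled to a fixed library size after adjustment by edgeR's TMM factors. Markers of several cell types differed between the groups. The 15 monocyte and macrophage markers summed to 544.0 to 700.6 CPM in CDAA and to 1397 to 2053 CPM in CSAA. Of these 15, 12 were lower in CDAA and 0 higher, against 10.5% lower and 4.25% higher among all tested genes. None of the 15 was at 0 in any library. The 14 hepatocyte markers summed to 112901 to 124213 CPM in CDAA and to 77722 to 98525 CPM in CSAA, with 2 of 14 higher, 0 lower and a median log2 fold change of 0.45. All 14 were detected in every library. Choline-deficient diets of this kind are known as models of fatty liver with inflammation and fibrosis, and the macrophage values ran against that description, as did those of the stellate cell and fibroblast markers, of which 7 of 10 were lower in CDAA. In bulk tissue, fewer cells of a type and less RNA per cell cannot be told apart. CDAA replicate 1 also held pancreatic acinar transcripts, with 11 markers at 2108 CPM against 3.98 to 14.598 CPM in the other libraries, and 8 striated muscle markers at 243.0 CPM against 1.28 CPM or less.

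Most genes of cholesterol synthesis were higher in CDAA livers. Of the 31 members, all of which were abundant enough to be tested, 20 rose, 1 fell and 10 did not pass (edgeR quasi-likelihood test, Benjamini-Hochberg adjusted p under 0.05 over 12845 genes). Among all tested genes 4.25% were called higher and 10.5% lower. The median log2 fold change, CDAA over CSAA, was 0.77 over the 31 members and 0.91 over the 19 enzymes, against 0.00 over all tested genes. Members took 0.456% to 0.482% of all reads in CDAA and 0.345% to 0.356% in CSAA, a share that uses no scaling factor. That the enzyme genes as a group were higher was known from these data when the members were listed.

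The size of these changes depends on what they are measured against. Scaled to library size only, 13 members were higher and 2 lower, and the median of all genes moved by -0.28. Over all genes that scale called 137 higher and 2745 lower, against 546 higher and 1355 lower in the main test. Scaled to the hepatocyte markers, an alternative added after the data were seen, 6 members were higher (Pmvk, Idi1, Fdps, Tm7sf2, Nsdhl and Hsd17b7) and 3 lower (Mbtps1, Mylip and Soat1). The median of all genes then moved by -0.48, and of all 12845 tested genes 77 were called higher and 5537 lower. The enzymes had a median log2 fold change of 0.64 on the library-size scale and of 0.46 on the hepatocyte scale, and on each of them 18 of the 19 enzymes, all but Lbr, were above 0. The part of hepatocyte content in these changes was not tested further.

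**Figure D1:**
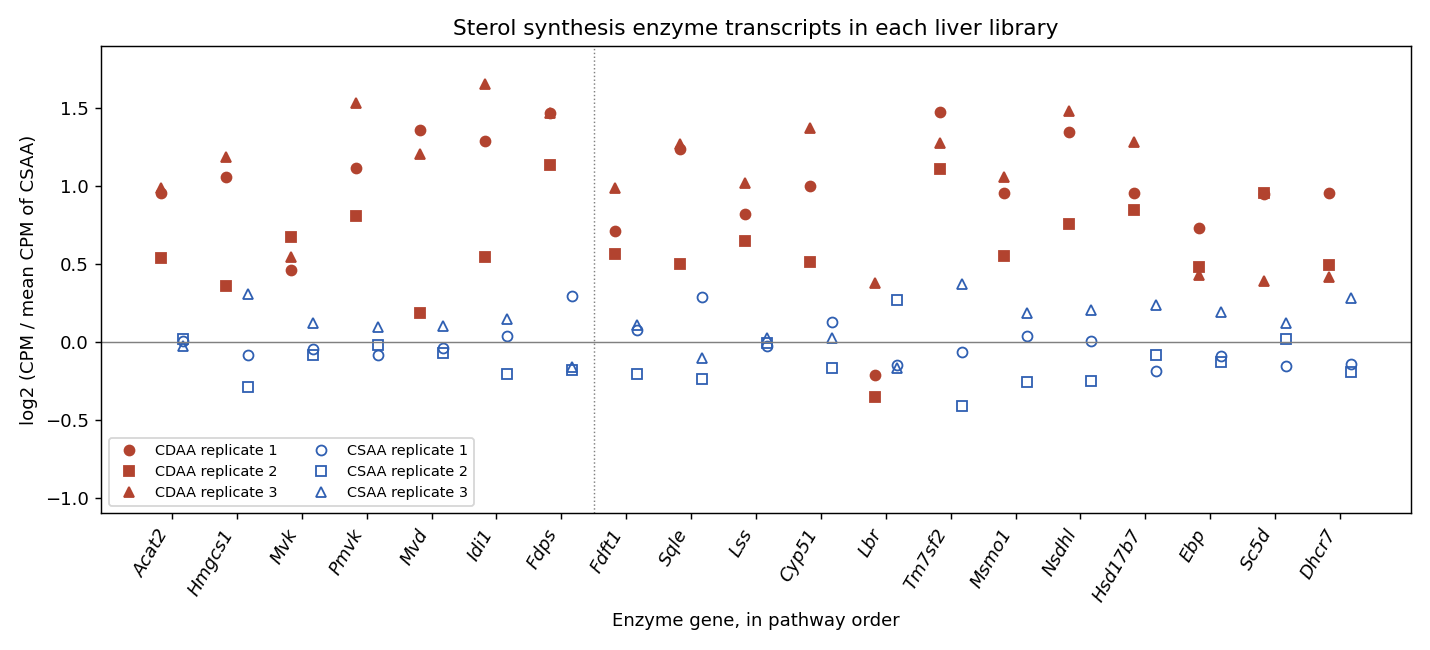
Each point is 1 liver library, as log2 of its CPM over the mean CPM of the CSAA libraries, for the 19 enzyme genes in pathway order (CDAA filled and left, CSAA open and right; the dotted line separates the mevalonate block from the squalene and sterol block). For 18 of the 19 enzymes the 3 CDAA libraries lie above the 3 CSAA libraries; Lbr is the exception.

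All 7 genes of the mevalonate and isoprenoid steps rose. Summed, they were at 838.9, 543.4 and 941.7 CPM in CDAA replicates 1, 2 and 3, against 382.0, 343.1 and 454.3 CPM in CSAA replicates 1, 2 and 3. The lowest CDAA library was thus above the highest CSAA library, but by less than the CDAA libraries differed among themselves. In the lists of values that follow, libraries stand in this replicate order.

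Acat2, the cytosolic thiolase that makes acetoacetyl-CoA, was at 81.4, 60.8 and 83.3 CPM in CDAA and at 42.1, 42.5 and 41.1 CPM in CSAA. Its CSAA libraries were almost level and all CDAA libraries stood above them (log2 fold change 0.84 ± 0.13 SE, edgeR adjusted p = 0.00652). Hmgcs1, which condenses acetoacetyl-CoA to HMG-CoA and whose promoter holds the strict letters shown above, was at 446.7, 275.5 and 488.2 CPM in CDAA and at 203.1, 175.6 and 265.7 CPM in CSAA. The groups were separated by a small gap, since CDAA replicate 2 was only just above CSAA replicate 3 (log2 0.91 ± 0.24, edgeR adjusted p = 0.0397).

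Mvk, the mevalonate kinase, had the smallest change of this block, with 26.2, 30.3 and 27.7 CPM in CDAA and 18.4, 17.9 and 20.6 CPM in CSAA (log2 0.56 ± 0.11, edgeR adjusted p = 0.0166). It was the one gene of the block that was highest in CDAA replicate 2. Pmvk, which adds the second phosphate, was at 56.6, 45.6 and 75.4 CPM in CDAA and at 24.5, 25.7 and 27.8 CPM in CSAA (log2 1.18 ± 0.18, edgeR adjusted p = 0.00565). Every CDAA library of Pmvk was well above the narrow CSAA range.

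Mvd, the decarboxylase that yields isopentenyl diphosphate, was at 56.7, 25.1 and 51.1 CPM in CDAA and at 21.5, 21.1 and 23.7 CPM in CSAA. CDAA replicate 2 sat next to the CSAA range, and the other two CDAA libraries lay far above it (log2 1.00 ± 0.27, edgeR adjusted p = 0.0432). Idi1, which isomerises isopentenyl diphosphate, was at 153.1, 91.7 and 198.0 CPM in CDAA and at 64.4, 54.4 and 69.4 CPM in CSAA (log2 1.24 ± 0.25, edgeR adjusted p = 0.0177). Fdps, which builds farnesyl diphosphate, had the largest fitted log2 fold change of the members that rose, with 18.1, 14.4 and 18.1 CPM in CDAA and 8.02, 5.76 and 5.84 CPM in CSAA (log2 1.36 ± 0.19, edgeR adjusted p = 0.00403).

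No gene of the isoprenoid branch away from sterols passed the test. Ggps1, which extends farnesyl to geranylgeranyl diphosphate for protein prenylation, was at 13.2, 7.63 and 14.9 CPM in CDAA and at 11.9, 10.2 and 11.5 CPM in CSAA (log2 0.08 ± 0.24, edgeR adjusted p = 0.852). Its CDAA libraries lay on both sides of the CSAA range, and its log2 fold change was -0.19 on library size only. Of 14 other genes of ubiquinone, dolichol and prenyl transfer, edgeR called 0 higher and 0 lower, with a median log2 fold change of 0.10, and 2 had an unadjusted p under 0.05. DESeq2 also called 0, while library size only gave 2 lower with a median of -0.19 and the hepatocyte scale 6 lower with a median of -0.39. Over all 12845 tested genes these 2 scales called 2745 and 5537 lower and moved the median by -0.28 and -0.48. The smallest adjusted p in that list was 0.0513, for Dhdds, a subunit of the dolichol-making prenyltransferase (log2 -0.39 ± 0.11, edgeR).

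Of the 12 genes of the squalene and sterol steps, 10 rose, 0 fell and 2 did not pass. Their sum was 2564, 2215 and 2329 CPM in CDAA and 1269, 1234 and 1442 CPM in CSAA. Unlike the mevalonate block, the sum was highest in CDAA replicate 1. Sc5d alone supplied 1021, 1024 and 693.0 CPM of the sums in CDAA.

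Fdft1, squalene synthase, which commits farnesyl diphosphate to sterols, was at 147.6, 133.3 and 178.6 CPM in CDAA and at 95.1, 78.2 and 96.9 CPM in CSAA (log2 0.77 ± 0.14, edgeR adjusted p = 0.0118). Sqle, squalene epoxidase, an oxygen-dependent and rate-limiting step, was at 146.1, 87.6 and 149.6 CPM in CDAA and at 75.6, 52.6 and 57.9 CPM in CSAA. CDAA replicate 2 was again the low library of its group, and lay nearest the CSAA values (log2 1.04 ± 0.22, edgeR adjusted p = 0.0205). Lss, which cyclises squalene epoxide to lanosterol, was at 94.5, 83.9 and 108.6 CPM in CDAA, and at 52.7, 53.4 and 54.6 CPM in CSAA (log2 0.84 ± 0.11, edgeR adjusted p = 0.00369, the smallest of any member).

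Cyp51, the lanosterol demethylase, was at 265.7, 188.9 and 344.0 CPM in CDAA and at 144.7, 118.1 and 134.7 CPM in CSAA (log2 1.01 ± 0.21, edgeR adjusted p = 0.0179). The next reduction can be made by the products of both Tm7sf2 and Lbr, of which Tm7sf2 alone passed. Tm7sf2 was at 125.3, 97.4 and 109.6 CPM in CDAA and at 43.1, 33.9 and 58.4 CPM in CSAA (log2 1.296 ± 0.20, edgeR adjusted p = 0.00589). Lbr, which also encodes a receptor for lamin B in the inner nuclear membrane, was at 15.1, 13.7 and 22.8 CPM in CDAA and at 15.8, 21.1 and 15.7 CPM in CSAA (log2 -0.03 ± 0.22, edgeR adjusted p = 0.955). The groups overlapped for Lbr and did not for Tm7sf2. Per length, on the deposited FPKM, Tm7sf2 over Lbr was 8.94, 7.68 and 5.19 in CDAA and 2.95, 1.73 and 4.03 in CSAA. These ratios did not overlap (difference of log2 ratios 1.37, exact two-sided permutation p = 0.1, n = 3 each, the smallest such a test can give here, and 0.2 after adjustment over the 4 ratios computed).

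The methyl groups of lanosterol that are lost after the Cyp51 step are removed by the products of Msmo1, Nsdhl and Hsd17b7, and all of these genes rose. Msmo1, the methylsterol oxidase, was at 166.5, 125.7 and 178.5 CPM in CDAA and at 88.0, 71.8 and 97.6 CPM in CSAA (log2 0.87 ± 0.17, edgeR adjusted p = 0.0133). Nsdhl, the decarboxylating sterol dehydrogenase, was at 127.8, 84.8 and 140.4 CPM in CDAA and at 50.4, 42.2 and 57.9 CPM in CSAA (log2 1.23 ± 0.20, edgeR adjusted p = 0.00762). Both are enzymes whose lowest library in either group was replicate 2. Hsd17b7, the keto-sterol reductase, was at 122.7, 114.0 and 154.0 CPM in CDAA and at 55.7, 59.8 and 74.6 CPM in CSAA (log2 1.04 ± 0.16, edgeR adjusted p = 0.00541).

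The last 3 steps had log2 fold changes below the median of the enzymes. Ebp, the sterol isomerase, was at 183.4, 153.9 and 148.5 CPM in CDAA and at 103.6, 100.9 and 126.3 CPM in CSAA (log2 0.55 ± 0.13, edgeR adjusted p = 0.0287). Sc5d, the lathosterol desaturase and per length the most abundant of the enzyme transcripts, had 1021, 1024 and 693.0 CPM in CDAA and 475.2, 535.3 and 574.4 CPM in CSAA (log2 0.79 ± 0.18, edgeR adjusted p = 0.0246). Dhcr7, the reductase that yields cholesterol itself, was at 148.1, 107.4 and 102.0 CPM in CDAA and at 69.3, 66.6 and 93.0 CPM in CSAA, without overlap, and just missed the threshold (log2 0.64 ± 0.18, edgeR adjusted p = 0.0517). In Ebp, Sc5d and Dhcr7 alike, CDAA replicate 3 was the lowest library of its group. In the whole table, 15.6% of tested genes had all CDAA libraries above all CSAA libraries, against 18 of the 19 enzymes and 22 of the 31 members. All CDAA libraries lay below all CSAA libraries for 20.4% of tested genes and for 1 of the 31 members.

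**Figure D2:**
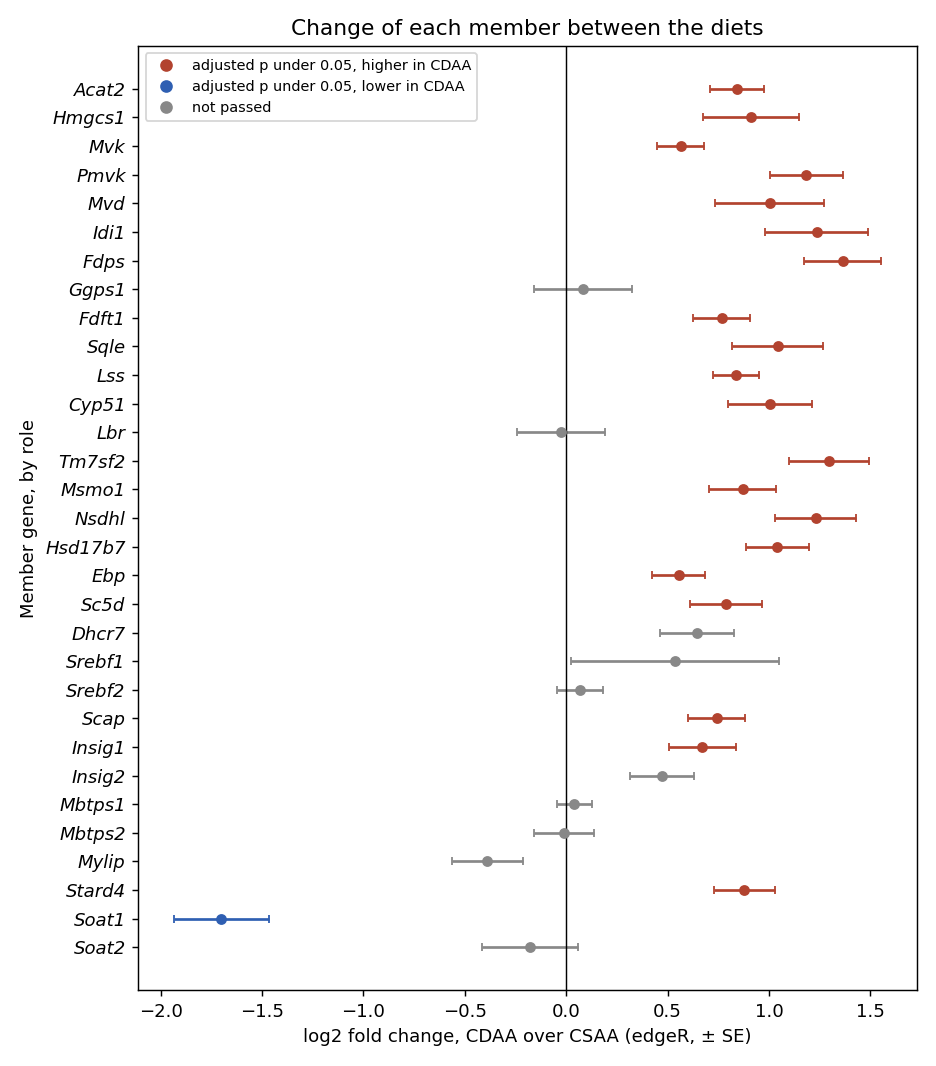
Log2 fold change, CDAA over CSAA, with its standard error from edgeR for each of the 31 members, ordered by role (red, higher; blue, lower; grey, not passed). The 20 genes in red lie between 0.55 and 1.36, Soat1 lies at -1.70, and Srebf1 has the widest error.

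The coefficient of variation was larger over the CDAA mice than over the CSAA mice for 15 of the 19 enzymes and smaller for 4, among them Tm7sf2 (12.6% in CDAA, 27.4% in CSAA) and Fdps (12.8% in CDAA, 19.6% in CSAA). It reached 38.0% for Mvd, 36.1% for Idi1 and 29.1% for Cyp51 over the CDAA libraries, against 6.43%, 12.1% and 10.1% over the CSAA libraries. Relative to the CSAA mean, the median enzyme was at log2 0.96, 0.55 and 1.18 in CDAA replicates 1, 2 and 3, and at -0.04, -0.17 and 0.12 in CSAA replicates 1, 2 and 3. Of the 19 enzymes, 13 were highest of all libraries in CDAA replicate 3, 4 in CDAA replicate 1 and 2 in CDAA replicate 2. Conversely, CDAA replicate 2 was the lowest of its group for 15 enzymes, CDAA replicate 3 for 3 and CDAA replicate 1 for 1. CDAA replicate 1 was also the library with acinar transcripts, and their effect on the enzyme values was not tested. Without CDAA replicate 1, 15 members were called higher, against 20 in the main fit, and 1 lower.

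Single libraries moved the calls, while directions held. Over the 6 fits that leave out 1 library, the log2 fold change stayed between 0.78 and 1.21 for Cyp51, between 0.75 and 1.13 for Hmgcs1 and between 0.79 and 1.29 for Mvd, and that of each of the 20 members that rose stayed at 0.46 or more. Such fits also rest on fewer samples. Without CSAA replicate 1 or CSAA replicate 2 only 10 members were called higher, and 9 passed as higher in all 6 fits that leave out 1 library: Acat2, Pmvk, Fdps, Fdft1, Lss, Tm7sf2, Nsdhl, Hsd17b7 and Stard4. Hmgcs1 did not pass without CDAA replicate 1 or 3 or CSAA replicate 1 or 2 (highest edgeR adjusted p = 0.133). Mvk did not pass without CDAA replicate 2 or CSAA replicate 1 or 2 (highest 0.0725, edgeR adjusted p). Mvd passed only in the fit without CDAA replicate 2 (highest edgeR adjusted p = 0.135 in the other 5). Idi1 lost its call without CSAA replicate 1 or 2 (highest edgeR adjusted p = 0.0678). Sqle lost it without CDAA replicate 1 or CSAA replicate 2 or 3 (highest edgeR adjusted p = 0.0746), and Cyp51 without any 1 CSAA replicate (highest edgeR adjusted p = 0.0666). Msmo1 missed the threshold without CSAA replicate 1 (edgeR adjusted p = 0.0528). Ebp and Sc5d did so without CDAA replicate 1 or 2 or CSAA replicate 1 or 2 (highest edgeR adjusted p = 0.108 and 0.102). Dhcr7 passed without CDAA replicate 3 (edgeR adjusted p = 0.0364) or CSAA replicate 3 (edgeR adjusted p = 0.0402).

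Some of the counts are uncertain because reads could be shared with other genes. Of the distinct 50-base windows in the annotated transcripts of Acat2, 39.1% also occur in another gene, mainly its paralog Acat3, which did not pass (log2 0.17 ± 0.14, edgeR adjusted p = 0.455). The share was 26.2% for Fdps, 25.3% for Idi1 and 26.5% for Fdft1. The windows of Fdps are shared mostly with Gm43738, which overlaps it on the same strand over 7512 bases. The effect of this overlap on the level and fold change of Fdps was not tested. The windows of Fdft1 are shared mostly with Ctsb, which overlaps it on the opposite strand and fell (log2 -0.75 ± 0.15, edgeR adjusted p = 0.0145), the reverse of Fdft1. Tm7sf2 overlaps Vps51 on the same strand and shares 9.87% of its windows, and Vps51 did not pass (log2 0.09 ± 0.13, edgeR adjusted p = 0.693). For Mvd, Nsdhl, Hsd17b7, Ebp, Pmvk, Stard4 and Insig2 the share was 0, but the whole span of Mvd, 9822 bases, lies within Galnt2l on the opposite strand. Whether the counting was strand-specific is not given in the sources used here.

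Neither SREBP gene passed the test. Srebf2 was at 89.8, 89.7 and 111.5 CPM in CDAA and at 98.0, 89.7 and 90.1 CPM in CSAA, with overlapping groups (log2 0.07 ± 0.11, edgeR adjusted p = 0.738). On the library-size and hepatocyte scales its log2 fold change was -0.22 and -0.40. Srebf1 varied more between mice than any other member, with 283.0, 633.7 and 170.4 CPM in CDAA and 126.0, 378.8 and 244.2 CPM in CSAA. Its groups overlapped over most of their range (log2 0.54 ± 0.51, edgeR adjusted p = 0.527), and without CDAA replicate 2 the log2 fold change was -0.14. The coefficient of variation of Srebf1 was 66.7% over CDAA and 50.7% over CSAA.

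The order of the libraries for Srebf1 was set beside the summed levels of its known programme and of the mevalonate block, an arrangement chosen after the values were seen. The 18 fatty acid synthesis targets of SREBP-1 summed to 28762, 29003 and 19606 CPM in CDAA and to 8418, 12434 and 9736 CPM in CSAA. Within each diet the 3 mice fell in the same order for Srebf1 and for this sum, but in CDAA replicates 1 and 2 were nearly level. Scd1 made up 55.8% to 57.7% of the sum in CDAA and 41.2% to 46.9% in CSAA. Without Scd1 the other 17 targets summed to 12727, 12494 and 8296 CPM in CDAA, where replicate 1 was then highest, and to 4792, 6600 and 5724 CPM in CSAA. Of the 18 targets, 10 were highest of the CDAA libraries in replicate 1 and 7 in replicate 2, where Srebf1 peaked, and 11 were highest of the CSAA libraries in replicate 2. The mevalonate block ran the other way in CDAA, where the library with most Srebf1, replicate 2, had the lowest sum (543.4 CPM) and the one with least, replicate 3, the highest (941.7 CPM). In CSAA, too, replicate 2 had the most Srebf1 and the lowest mevalonate sum. With 3 mice per group no test of this order was made. The Srebf1 to Srebf2 ratio per length was 4.02, 9.005 and 1.95 in CDAA and 1.64, 5.38 and 3.46 in CSAA, without separation of the groups (exact two-sided permutation p = 0.7, n = 3 each).

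**Figure D3:**
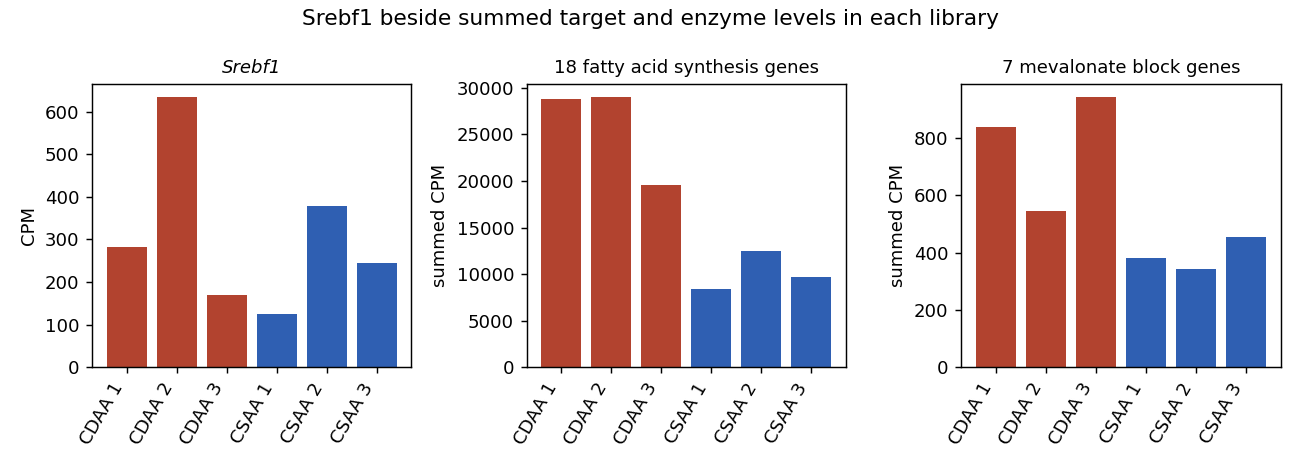
Bars give, for each library, the CPM of Srebf1, the summed CPM of 18 fatty acid synthesis genes and the summed CPM of the 7 mevalonate block genes (red, CDAA; blue, CSAA). In both diets replicate 2 has the highest Srebf1 and the lowest mevalonate sum, at 543.4 CPM in CDAA and 343.1 CPM in CSAA.

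Of the genes that carry, hold back and cleave SREBP, 2 of 5 rose and 0 fell, beside 4.25% and 10.5% of all tested genes. Scap, the escort, was at 164.8, 162.3 and 123.9 CPM in CDAA and at 82.7, 86.0 and 100.9 CPM in CSAA (log2 0.74 ± 0.14, edgeR adjusted p = 0.0133). The groups did not overlap, and CDAA replicate 3, in which most enzymes peaked, was the CDAA library with least Scap. Insig1, a retention protein and itself a known SREBP target, was at 489.2, 698.5 and 610.5 CPM in CDAA and at 332.3, 429.4 and 367.3 CPM in CSAA (log2 0.67 ± 0.17, edgeR adjusted p = 0.0332). In both diets it was highest in replicate 2, as Srebf1 was. Neither call held throughout. Scap did not pass without CDAA replicate 2 or CSAA replicate 1 or 2 (highest edgeR adjusted p = 0.0633), and Insig1 did not pass without CDAA replicate 2 or any 1 CSAA replicate (highest edgeR adjusted p = 0.117).

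Insig2, the other retention protein, whose liver transcript is known to respond to insulin rather than to sterol, was at 468.9, 414.1 and 348.7 CPM in CDAA and at 253.6, 291.4 and 343.3 CPM in CSAA. CDAA replicate 3 stood only just above CSAA replicate 3, and Insig2 did not pass (log2 0.47 ± 0.16, edgeR adjusted p = 0.0839), although it did without CDAA replicate 3 (edgeR adjusted p = 0.0417). Per length, Insig1 over Insig2 was 1.17, 1.89 and 1.97 in CDAA and 1.47, 1.65 and 1.20 in CSAA (exact two-sided permutation p = 0.6, n = 3 each), and the groups overlapped. The proteases had log2 fold changes near 0 on the main scale. Mbtps1, the site-1 protease, had 105.0, 97.8 and 100.5 CPM in CDAA and 100.5, 95.3 and 99.2 CPM in CSAA, a narrow range in either diet (log2 0.04 ± 0.09, edgeR adjusted p = 0.794). On the hepatocyte scale, where the median of all genes moved by -0.48, it was called lower (log2 -0.44 ± 0.13, edgeR adjusted p = 0.0242). Mbtps2, the site-2 protease, had 16.1, 12.1 and 14.1 CPM in CDAA and 14.56, 14.83 and 13.24 CPM in CSAA (log2 -0.01 ± 0.15, edgeR adjusted p = 0.968), and 28.9% of its windows are shared, mostly with Yy2, which lies within it.

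**Figure D4:**
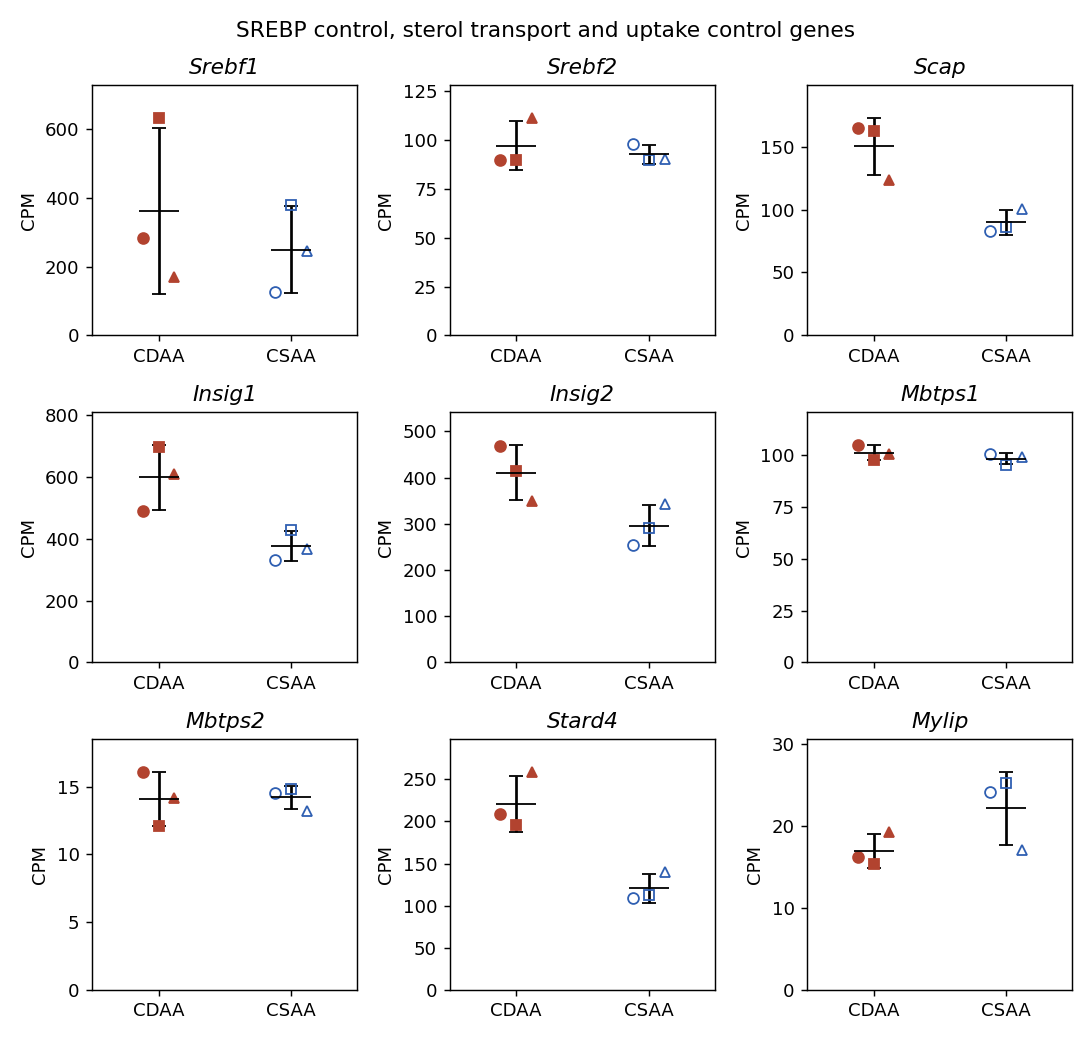
CPM of 9 control, transport and uptake genes (circle, square and triangle are replicates 1, 2 and 3; horizontal bars are means and error bars SD, n = 3 each; CDAA filled, CSAA open). Scap, Insig1, Insig2 and Stard4 have all CDAA libraries above all CSAA libraries, while Srebf1, Srebf2, Mbtps1, Mbtps2 and Mylip overlap.

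Genes that place and store cholesterol went different ways. Stard4, a cytosolic sterol carrier and known SREBP target, was at 209.4, 195.4 and 258.9 CPM in CDAA and at 108.5, 112.3 and 140.3 CPM in CSAA (log2 0.88 ± 0.15, edgeR adjusted p = 0.00913). Its rise lay within the range of the enzymes and passed in all 6 fits that leave out 1 library. Mylip, the ubiquitin ligase that marks lipoprotein receptors for degradation and is induced by LXR, was at 16.2, 15.3 and 19.3 CPM in CDAA and at 24.1, 25.3 and 17.1 CPM in CSAA. The groups overlapped through CSAA replicate 3, and Mylip did not pass (log2 -0.39 ± 0.18, edgeR adjusted p = 0.177). It was called lower on library size only (log2 -0.68, edgeR adjusted p = 0.0465) and on the hepatocyte scale (log2 -0.87, edgeR adjusted p = 0.0166). These 2 scales moved the median of all genes by -0.28 and -0.48.

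Soat1 was the member that fell. It encodes the widely expressed, macrophage-rich cholesterol esterification enzyme and was at 8.68, 7.56 and 8.89 CPM in CDAA and at 35.6, 18.7 and 27.5 CPM in CSAA. Every CDAA library was below the lowest CSAA library, and the CDAA values were close together (log2 -1.70 ± 0.23, edgeR adjusted p = 0.00386). The call held in all 13 alternative fits, with log2 fold changes from -2.18 to -1.44. Of the 15 macrophage markers, 12 moved with it and 3 did not pass. Cd68 fell by 2.14 ± 0.20 on the log2 scale (edgeR adjusted p = 0.00125) and Adgre1 by 1.33 ± 0.18 (edgeR adjusted p = 0.00384). Clec4f, of resident Kupffer cells, did not pass (log2 -0.33 ± 0.24, edgeR adjusted p = 0.397), nor did Vsig4 (log2 -0.56 ± 0.26, edgeR adjusted p = 0.188). Cd5l (log2 -1.27 ± 0.19, edgeR adjusted p = 0.00594) and Marco (log2 -3.43 ± 0.65, edgeR adjusted p = 0.0132) fell. The part of macrophage content in the fall of Soat1 was not tested. Soat2, the enzyme of hepatocytes, was at 55.0, 74.0 and 105.7 CPM in CDAA and at 104.2, 90.0 and 71.2 CPM in CSAA, with full overlap (log2 -0.18 ± 0.24, edgeR adjusted p = 0.661). Per length, Soat2 over Soat1 was 28.1, 43.3 and 52.6 in CDAA and 12.9, 21.3 and 11.5 in CSAA, without overlap (difference of log2 ratios 1.45, exact two-sided permutation p = 0.1, n = 3 each, 0.2 adjusted over the 4 ratios).

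**Figure D5:**
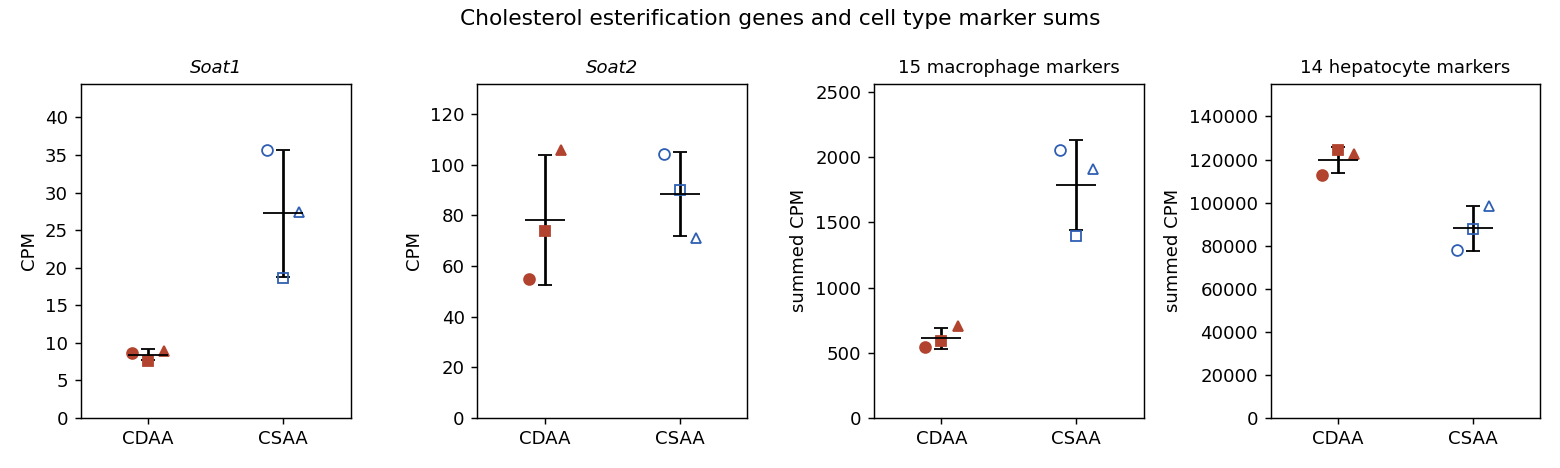
CPM of Soat1 and Soat2 and summed CPM of 15 monocyte and macrophage markers and 14 hepatocyte markers (circle, square and triangle are replicates 1, 2 and 3; bars are means and SD, n = 3 each; CDAA filled, CSAA open). Soat1 and the macrophage sum are lower in every CDAA library, the hepatocyte sum is higher in every one, and Soat2 overlaps. Most of the hepatocyte sum is Alb.

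Levels per length, on the deposited FPKM, set the members in order. Insig1 was the highest at 175.4 ± 29.4 FPKM in CDAA and 133.9 ± 15.99 FPKM in CSAA (SD, n = 3 each), followed by Sc5d at 169.3 ± 31.4 FPKM in CDAA and 119.3 ± 4.45 FPKM in CSAA. In CDAA these 2 did not differ beyond their spread. Insig2 came next at 106.9 ± 14.01 FPKM in CDAA and 93.5 ± 8.79 FPKM in CSAA, and Hmgcs1 was at 79.9 ± 24.1 FPKM in CDAA and 51.3 ± 9.14 FPKM in CSAA. At the low end stood Soat1, at 0.776 ± 0.0857 FPKM in CDAA and 3.09 ± 1.09 FPKM in CSAA, and Mbtps2, at 1.27 ± 0.192 FPKM in CDAA and 1.55 ± 0.169 FPKM in CSAA. Soat1 had rank 31 in CDAA and rank 28 in CSAA. Fdps, at 3.64 ± 0.546 FPKM in CDAA and 1.73 ± 0.438 FPKM in CSAA, stood at rank 27 in CDAA and rank 30 in CSAA. FPKM carries no scaling factor beyond the library total.

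Other genes around the pathway were counted from lists written with earlier results of these data known, and stand against the 4.25% of all tested genes called higher and the 10.5% called lower. Of 18 fatty acid synthesis targets of SREBP-1, 11 rose and 0 fell, with a median log2 fold change of 1.11. The number that rose was 3 without CSAA replicate 1, 5 without CDAA replicate 1 or 2 and 7 without CSAA replicate 2 or 3 or on the hepatocyte scale. The smallest adjusted p values were those of Me1, malic enzyme (log2 1.49 ± 0.12, edgeR adjusted p = 0.00121), and Scd1, the stearoyl-CoA desaturase (log2 1.70 ± 0.26, edgeR adjusted p = 0.00589). Of 19 genes of SREBP transport, sterol-regulated degradation and sterol sensing, 1 rose (5.26%, near the share of all genes) and 0 fell, with a median of 0.04. DESeq2 called 4 higher, and the hepatocyte scale gave 10 lower with a median of -0.44. That scale called 5537 of all 12845 tested genes lower and moved the median of all genes by -0.48. The gene that rose was Sar1b, a GTPase of the vesicles that leave the endoplasmic reticulum (log2 0.79 ± 0.14, edgeR adjusted p = 0.0108).

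Of 12 LXR targets and sterol efflux genes, 0 rose and 2 fell (16.7%, beside 10.5% of all genes), with a median of 0.14, which was -0.14 on library size only and -0.33 on the hepatocyte scale. DESeq2 and the fit with the replicate number as a block each called 2 higher and 2 lower. In the main test 6 had an unadjusted p under 0.05, and log2 fold changes ran from -1.46 to 0.99, so the list was split. The 2 that fell in the main test were Abcg1 and Arl4c (log2 -1.23 ± 0.24, edgeR adjusted p = 0.0145). Abcg1, a sterol exporter abundant in macrophages, was at 10.4, 10.3 and 13.4 CPM in CDAA and 31.7, 27.96 and 34.1 CPM in CSAA (log2 -1.46 ± 0.15, edgeR adjusted p = 0.00155). Of 15 genes of intracellular sterol transport and hydrolysis, 1 rose and 3 fell, with a median of -0.10. Without CDAA replicate 2 or CSAA replicate 1, 1 of them fell and 0 rose. The hepatocyte scale gave 8 lower, beside 5537 of all 12845 tested genes on that scale. Osbpl3, an oxysterol-binding protein gene, had 1.29, 3.85 and 1.99 CPM in CDAA and 22.5, 29.6 and 14.2 CPM in CSAA (log2 -3.21 ± 0.41, edgeR adjusted p = 0.00303). Gramd1b, a sterol carrier between plasma membrane and endoplasmic reticulum, also fell (log2 -1.24 ± 0.25, edgeR adjusted p = 0.0167). The 12 macrophage markers that fell had moved in the same direction as Abcg1, Arl4c, Osbpl3 and Gramd1b, and the part of macrophage content in these falls was not tested.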

How the data were processed

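Liver RNA of 6 mice was sequenced, 1 library each, and grouped by the labels, which describe 3 separate mice per diet. Each deposited file gives whole-number read counts per gene, not normalised by the authors, and FPKM, which the authors scaled by listed gene length and library total, per the file headers. Recomputed FPKM equalled the deposited values within a relative tolerance of 0.001. Cutadapt 1.15, HISAT2 2.0.5, DESeq 1.30.0 and HTSeq 0.9.1 stand in the submitters' processing notes, which list mm10 as well as mm9. Their roles, the strand setting and the treatment of multiply mapped reads are not given in the sources. The start and end of 0 of the 31 members equalled those of the GRCm38 annotation, so no coordinate of the files is printed.

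The counts went into edgeR 4.0.16 under R 4.3.3 (filterByExpr, TMM factors, glmQLFit, glmQLFTest, no covariate), with Benjamini-Hochberg adjustment over the 12845 genes kept and a threshold of 0.05. CPM uses TMM-scaled library sizes, with factors of 0.883 to 0.935 in CDAA and 1.04 to 1.17 in CSAA. A count of 3 corresponds to 0.148 to 0.228 CPM, which covers counting error only. The SE is the log2 fold change over the square root of F. The functions were tested on simulated counts. Ratios of 2 genes use FPKM and exact permutation tests (SciPy 1.17.1). Shared windows and promoters come from GENCODE M21 transcripts and RefSeq promoters. All 31 members were to be described, and of each other list the 2 members of lowest adjusted p on the side with more calls, or the 1 of lowest p where none was called. Members, lists and the naming rule were chosen with earlier results of these data known. Alternatives were RLE, upper-quartile, library-size and hepatocyte-marker scaling, no filter, DESeq2 1.42.0, the replicate number as a block, and leaving out each library.

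The T and B lymphocyte list (7 of 12 lower), the neutrophil list (2 of 2), the stellate and fibroblast list (7 of 10), the endothelial list (2 of 8) and the cholangiocyte list (1 of 5) had 0 genes called higher in CDAA. Among all tested genes 4.25% were called higher and 10.5% lower. At that share, lists this short can hold 0 genes called higher without a shift of their own, and the cholangiocyte count rests on 1 gene. Of the acinar and striated muscle lists 1 gene each could be tested, and 0 passed.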

Additional observations from a re-analysis of the deposited data

How the results depend on the processing

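Of the 21 called members, 0 changed sign in any of the 13 alternatives. With library size only, 13 members were higher and 2 lower, and among all genes 137 were higher and 2745 lower (4.75% of calls higher). With hepatocyte marker scaling, chosen after the data were seen, 6 members were higher and 3 lower, and among all genes 77 were higher and 5537 lower. DESeq2 called 1102 genes higher. The replicate block gave 293 genes higher and 1090 lower, and 18 members higher, with Ebp (edgeR adjusted p = 0.0627) and Sc5d (edgeR adjusted p = 0.0619) lost. Deviations of same-numbered libraries from their group means correlated at 0.03, 0.14 and -0.11 across genes. Only CDAA replicate 2 correlated best with its own number. No shared batch or day is named for same-numbered samples, and with 3 mice per group these correlations cannot show whether there was one. Leaving out 1 library gave 10 to 20 members higher and 1 lower, and 76 to 688 genes higher and 568 to 1456 lower.

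The 8 members that did not pass and changed sign in some alternative are given here. With library size only the log2 fold change was -0.19 for Ggps1, -0.22 for Srebf2 and -0.24 for Mbtps1. With hepatocyte marker scaling it was -0.38 for Ggps1, -0.40 for Srebf2, -0.44 for Mbtps1 and -0.00297 for Insig2. With DESeq2 it was 0.00215 for Lbr and 0.015 for Mbtps2, and with RLE factors 0.011 for Mbtps2. Leaving out 1 library gave -0.11 to 0.325 for Ggps1, -0.281 to 0.14 for Lbr, -0.14 to 0.984 for Srebf1, -0.0434 to 0.130 for Srebf2, -0.113 to 0.0904 for Mbtps2 and -0.454 to 0.0254 for Soat2. The causes were not tested. Members with few reads include Soat1, with 102 to 125 reads in CDAA and 350 to 724 in CSAA, and Fdps, with 194 to 255 reads in CDAA and 94 to 163 in CSAA, and the effect of depth was not tested. With 3 mice per group single libraries decide the calls nearest the threshold.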
